A study of Rattus norvegicus with 9 samples.

Results

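The genes described here build the early secretory pathway: they carry new proteins into the endoplasmic reticulum (ER), fold them there, and move them between the ER and the Golgi apparatus. They were chosen by symbol (the Tmed, Sec, Cop, Ssr, Spcs, Srp, Pdia, Lman and Kdelr genes, with Sar1a, Sar1b, Surf4, Calr and Canx), which gave 62 genes of the 10411 with a probe set of a single symbol on the array. A gene with more than 1 probe set was read from its brightest, by the mean of the 9 arrays; the 6 cultures add more to that mean than the 3 tissue pools. The gene families themselves were picked with earlier results of these arrays known, so the counts over them are a description. Ssrp1 shares its first letters with the Ssr genes but encodes a chromatin protein, and was left out (difference 0.16 ± 0.07, not called).

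RNA came from the ventral midbrain of rat embryos of embryonic day 11 (MesE11, 3 arrays) and from primary cultures of dissociated cells of that region after 9 days in vitro (MesPC, 6 arrays). Per the labels, the embryos of 4 pregnant rats were mixed into 3 groups that were handled apart; a tissue sample is a pool, and cultures were set up in duplicate. No treatment or genotype is named, and the labels speak of 3 independent MesPC samples, so the 6 culture arrays may stand for fewer than 6 independent cultures. Which culture arrays share an embryo group is not stated. The main fit treats all 6 as independent, so its standard errors and p-values may be too small. Values are log2 intensities after RMA, differences are culture minus tissue ± the moderated standard error of limma (3 and 6 arrays), and a gene was called at an adjusted p under 0.05 over all 15866 probe sets. These p-values cover the spread among the arrays alone, and the number of arrays limits the precision. Some counts are also given at an unadjusted p under 0.05 in limma. The share of all genes at that threshold is not given, so those counts cannot be set against it.

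Proteins bound for secretion or for membranes are recognised as they leave the ribosome by the signal recognition particle and threaded through the Sec61 channel. In the ER lumen their signal peptide is cut off and they are folded with the help of lectin chaperones and disulfide isomerases. COPII-coated vesicles take them to the Golgi with the help of cargo receptors, and COPI-coated vesicles bring receptors and escaped ER residents back. All cells use this machinery, and cells that secrete much protein have more of it.

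The culture arrays fell into 2 sets. Arrays 1 to 3 and arrays 4 to 6 stood apart, with a Pearson's r across probe sets of 0.982 to 0.987 between the sets and 0.997 to 0.998 within each; the labels name nothing that parts them, so differences are also given for either set against the 3 tissue arrays. The neuron markers, measured for 11 of 12 genes, averaged 12.08 to 12.16 in tissue. On culture arrays 1 to 3 they averaged 10.13 to 10.39, and 11.31 to 11.34 on arrays 4 to 6. Of 6 markers of the midbrain floor plate and its dopamine neurons, 2 (Otx2 and Shh) were higher, 3 (Nr4a2, Pitx3 and Ddc) were lower and Foxa2 was not called. Of all genes, 21.9% were higher and 22.7% lower. The mean of these 6 markers was 9.02 to 9.12 in tissue. It was 8.31 to 8.48 on culture arrays 1 to 3, and 8.94 to 9.03 on arrays 4 to 6. For comparison, the controls for bacterial genes read 4.80 to 6.68. Th, the enzyme that marks dopamine neurons, read 11.53 in tissue and 8.45 in culture.

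Of the 62 secretory genes, 39 were higher in culture and 1 was lower, while 22 were not called. That is 62.9% of them higher, where 21.9% of all genes were higher and 22.7% lower. Their median difference was 0.34, against −0.06 over all genes. Sec24d and Kdelr3 were the 2 that at least doubled, as 3.63% of all genes did. In 40 of the 62 genes all 6 culture values lay above all 3 tissue values, as they did for 21.1% of all genes, and in 0 genes did they all lie below (23.3% of all genes). The 62 genes were also brighter than most, with a median level over the 9 arrays of 10.86 against 9.03 for all genes. Without the dimmest 40% of probe sets 66.1% of the members and 28.4% of all genes were higher, and the median difference of all genes was 0.015. In bulk RNA, a change in the number of cells of a type and a change in RNA per cell cannot be told apart. Culture and tissue also differed in dissociation, in the 9 days in vitro and in markers of cell types. With this design the parts of these cannot be told apart.

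**Figure D1:**
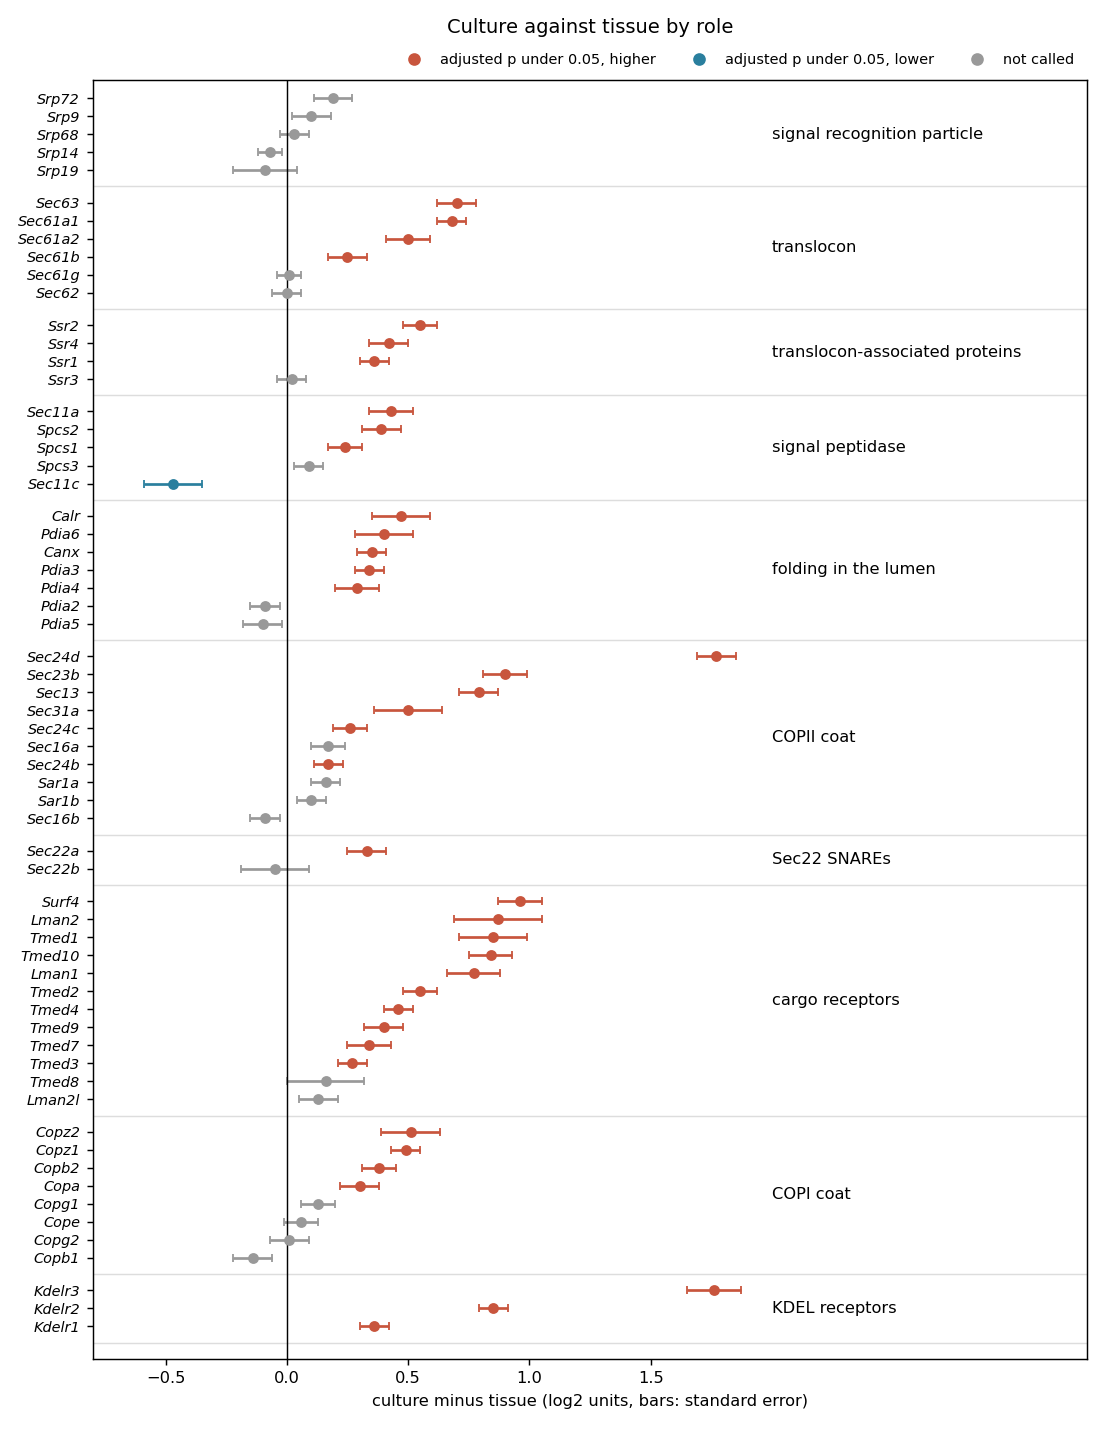
Each point is the difference of 1 gene between culture and tissue in log2 units, with its standard error, grouped by role in the pathway; colour gives the call at an adjusted p under 0.05. Sec24d and Kdelr3 lie furthest to the right, at 1.77 and 1.76, the 5 genes of the signal recognition particle lie near 0, and Sec11c at −0.47 is the gene called lower.

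Entry into the ER begins with the signal recognition particle and goes on through the Sec61 channel. The particle was measured with 5 genes, Srp9, Srp14, Srp19, Srp68 and Srp72, which differed by −0.09 to 0.19; limma called 0 of them, and 1, Srp72, had an unadjusted p under 0.05. For Srp72 the probe sets disagreed, since the one used here differed by 0.19 ± 0.08 and another fell by 0.39 (adjusted p = 0.0104). The latter is the brighter of the pair in tissue (10.07 against 9.95), so Srp72 was called lower where the tissue arrays chose the probe set. The remaining probe set of Srp72 differed by −0.26 ± 0.15 and was not called. Of the 6 genes of the translocon, 4 were higher, where 21.9% of all genes were. Sec61a1, the pore-forming alpha subunit of the channel, read 10.02, 10.27 and 10.08 on the tissue arrays and 10.75 to 10.88 on the culture arrays, with a median of 10.80. The groups did not overlap, the culture sets differed from tissue by 0.68 and 0.69, and Sec61a1 rose by 0.68 ± 0.06 (1.60-fold, adjusted p = 2.99e-05), and by 0.66 ± 0.11 on its other probe set. Sec61a2, the second alpha subunit gene, rose by 0.50 ± 0.09, by 0.39 with culture arrays 1 to 3 and by 0.61 with arrays 4 to 6.

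Sec63, a membrane J-domain protein that recruits the lumenal chaperone BiP to the channel, read 9.85, 10.04 and 9.70 in tissue and 10.46 to 10.68 in culture, with a median of 10.57. It rose by 0.70 ± 0.08 on this probe set and by 0.78 ± 0.11 on the other, again with no overlap. Its partner Sec62 and the gamma subunit gene Sec61g were nearly level, with differences of 0.00 ± 0.06 and 0.01 ± 0.05. Sec61b, the beta subunit, was higher by 0.25 ± 0.08 (adjusted p = 0.0279). Its call was lost with arrays 4 to 6 alone (difference 0.15) and when MesPC replicate 1 or any of the tissue arrays was left out (adjusted p between 0.0531 and 0.103). Whether the subunits of the channel differed in their change was not tested.

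The translocon-associated protein complex sits beside the channel and aids the entry of some proteins. It was higher for 3 of its 4 genes, against 21.9% of all genes. Ssr2 read 10.77, 10.68 and 10.65 in tissue and 11.10 to 11.35 in culture, with a median of 11.27, and rose by 0.55 ± 0.07. Ssr4 rose by 0.42 ± 0.08 and Ssr1 by 0.36 ± 0.06, and for all 3 every culture array lay above every tissue array. Ssr3 was not called on its brightest probe set (0.02 ± 0.06), and a dimmer one fell by 0.22 (adjusted p = 0.0138).

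Signal peptidase, the enzyme that removes the signal peptide, held the gene that fell. Sec11a and Sec11c encode alternative catalytic subunits of this enzyme. Sec11a read 10.83, 10.75 and 10.67 in tissue and 10.96 to 11.34 in culture, with a median of 11.22, and rose by 0.43 ± 0.09 (adjusted p = 0.00478). Sec11c read 9.77, 9.79 and 9.39 in tissue and 8.88 to 9.44 in culture, with a median of 9.20, and fell by 0.47 (adjusted p = 0.0137). Its groups overlapped by a little, because MesE11 replicate 3 lay below the highest culture array, and its difference was −0.34 with culture arrays 1 to 3 and −0.60 with arrays 4 to 6. The call of Sec11c was lost without MesE11 replicate 1 or 2 (adjusted p = 0.0636 and 0.0620), which leaves 0 members lower in limma; Sec11c then remained the 1 with an unadjusted p under 0.05. Sec11c is described because it was the 1 member called lower, a choice made after its values were seen.

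Of the non-catalytic subunits of signal peptidase, Spcs2 was higher by 0.39 ± 0.08 and Spcs1 by 0.24 ± 0.07, while Spcs3 was not called (0.09 ± 0.06). Spcs1 did not pass without MesE11 replicate 1 or 3 (adjusted p = 0.0570 and 0.0965), nor with culture arrays 4 to 6 alone (0.0890).

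Among the 7 genes for folding in the lumen, 5 were higher, against 21.9% of all genes. Calreticulin (Calr) and calnexin (Canx) are the soluble and the membrane-bound lectin chaperone that hold glycoproteins until they are folded, and Pdia3 is the disulfide isomerase that works with them. Calr read 11.89, 12.02 and 11.69 in tissue and 12.12 to 12.52 in culture, with a median of 12.38. Every culture array was above every tissue array, with arrays 1 to 3 (difference 0.64) above arrays 4 to 6 (0.31), and Calr rose by 0.47 ± 0.12 (adjusted p = 0.00935; 0.0527 without MesE11 replicate 3). Canx read 11.98, 12.00 and 11.89 in tissue and 12.23 to 12.40 in culture, with a median of 12.33, and rose by 0.35 ± 0.06. Its 2 dimmer probe sets rose by more, 0.93 ± 0.09 and 0.78 ± 0.15. Pdia3 rose by 0.34 ± 0.06, while its dimmer probe set differed by 0.13 ± 0.07 and was not called.

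The isomerases Pdia6 and Pdia4 were higher by 0.40 ± 0.12 and 0.29 ± 0.09. Culture arrays 1 to 3 differed from tissue by 0.58 and 0.40 for these genes, and arrays 4 to 6 by 0.21 and 0.17, the last of which was not called (adjusted p = 0.109). Pdia6 did not pass without MesE11 replicate 1 or 3 (adjusted p = 0.0610 and 0.0971), and Pdia4 did not without any 1 of the tissue arrays or of MesPC replicates 1 to 3 (adjusted p from 0.0530 to 0.130). Pdia5 differed by −0.10 ± 0.08. Pdia2, an isomerase best known from the pancreas, read 5.57 to 5.92 on all arrays, within the 4.80 to 6.68 of the 27 control probe sets for bacterial genes; Sec16b was the other member whose means in both groups lay below that highest control.

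The promoters of Calr and Canx are shown because they are the members whose upstream sequence holds the ER stress response element, a known binding site for transcription factors of the unfolded protein response. The motif searched was CCAAT, then 9 bases of any kind, then CCACG, on both strands of the 250 bases before the start, in RefSeq sequences of the build GRCr8, where 53 of the 62 members had an entry. It was present in 2 of the 53 members and in 21 of 27457 genes (22 of 33469 such windows, 0.0657%). Of 79 other pathway genes with an entry 6 held it. They were the chaperone genes Hspa5, Hsp90b1 and Dnajc3, the oxidase gene Ero1b, and Creld2 and Xbp1. Creld2 and Xbp1 were not called and the others were higher, where 21.9% of all genes were. With a random effect for the culture sets, described below, Hspa5, Dnajc3 and Ero1b lost the call (adjusted p = 0.145, 0.136 and 0.0689) and Hsp90b1 kept it (0.0174). The match is in capitals, and in Calr it lies on the other strand. A match describes the sequence and is no measure of binding.
Calr, chr19:40213117-40213366, + strand: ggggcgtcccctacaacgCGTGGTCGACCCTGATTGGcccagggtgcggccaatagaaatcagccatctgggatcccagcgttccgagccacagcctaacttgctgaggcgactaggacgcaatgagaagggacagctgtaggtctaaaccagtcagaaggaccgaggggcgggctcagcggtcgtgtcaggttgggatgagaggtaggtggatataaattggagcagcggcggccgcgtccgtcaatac
Canx, chr10:35157858-35158107, - strand: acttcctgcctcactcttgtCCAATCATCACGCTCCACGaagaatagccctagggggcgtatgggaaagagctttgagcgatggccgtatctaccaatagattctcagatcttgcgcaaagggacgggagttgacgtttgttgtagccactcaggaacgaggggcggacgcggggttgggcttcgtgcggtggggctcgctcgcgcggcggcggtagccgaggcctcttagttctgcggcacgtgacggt

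Of the 10 genes of the COPII coat, 6 were higher, against 21.9% of all genes. Sec24d encodes 1 of the cargo-binding adaptors of the coat and is known for its part in the export of procollagen. It read 7.32, 7.71 and 7.54 in tissue and 9.18 to 9.36 in culture, with a median of 9.30. The groups were far apart, both culture sets differed from tissue by nearly the same amount (1.76 and 1.79), and Sec24d rose by 1.77 ± 0.08 (3.42-fold, adjusted p = 2.92e-07), which ranked 86 by size of the rise among 10411 genes. Kdelr3 ranked 87, and their order turned after quantile normalization (1.81 for Sec24d and 1.83 for Kdelr3). The other adaptors measured were Sec24c and Sec24b, which were higher by 0.26 ± 0.07 and 0.17 ± 0.06. Sec24c did not pass without MesE11 replicate 1 or 3 (adjusted p = 0.0702 and 0.0600), and Sec24b did not within either culture set (adjusted p = 0.0746 and 0.0769) or without any 1 of MesE11 replicates 1 and 3 and MesPC replicates 1, 3, 4 and 6 (0.0545 to 0.150). Whether the adaptors differed from each other in their change was not tested.

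Sec23b, which forms the inner coat together with an adaptor, read 10.42, 10.34 and 10.03 in tissue and 11.05 to 11.32 in culture, with a median of 11.14, and rose by 0.90 ± 0.09 (1.86-fold). The outer coat is built of Sec13 and Sec31. Sec13 read 10.62, 10.65 and 10.53 in tissue and 11.14 to 11.50 in culture, with a median of 11.42, and rose by 0.79 ± 0.08. Both genes were higher on every culture array than on any tissue array. Sec31a rose by 0.50 ± 0.14 on its brightest probe set and fell by 0.37 on the other (adjusted p = 0.0123), the 1 member with probe sets called in opposite directions, and it did not pass without MesE11 replicate 1 or 2 (adjusted p = 0.0531 and 0.0528).

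The small GTPases that start the coat were not called: Sar1a differed by 0.16 ± 0.06 (adjusted p = 0.0704) and Sar1b by 0.10 ± 0.06. Sar1a was higher by 0.59 ± 0.09 on its dimmer probe set (adjusted p = 0.000515), so its result depended on the probe set. Of the Sec16 scaffold genes of the exit sites, Sec16a differed by 0.17 ± 0.07 and Sec16b by −0.09 ± 0.06, neither called. Sec22a, related to the SNARE of these vesicles, rose by 0.33 ± 0.08, while Sec22b, that SNARE itself, read below tissue with culture arrays 1 to 3 (−0.26) and above it with arrays 4 to 6 (0.16).

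Cargo receptors were higher in 10 of 12 cases, with 0 lower and a median difference of 0.51. Of all genes, 21.9% were higher and 22.7% lower. Surf4, which loads soluble secreted proteins into COPII vesicles, read 10.15, 9.92 and 9.98 in tissue and 10.84 to 11.17 in culture, with a median of 10.95. It rose by 0.96 ± 0.09 (1.95-fold, adjusted p = 3.03e-05), and by 0.65 ± 0.07 on its other probe set, with no overlap of the groups. Lman1 (ERGIC-53), a mannose-binding receptor for glycoproteins such as clotting factors, read 8.26, 8.55 and 8.28 in tissue and 8.87 to 9.35 in culture, with a median of 9.12, and rose by 0.77 ± 0.11. Lman2 (VIP36), a related lectin, rose by 0.87 ± 0.18, by 1.15 with culture arrays 1 to 3 and by 0.58 with arrays 4 to 6. Lman2l was not called (0.13 ± 0.08).

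The Tmed genes encode the p24 proteins, membrane proteins that cycle between ER and Golgi and act as receptors for lipid-anchored cargo. Of the 8 measured, 7 were higher, against 21.9% of all genes. Tmed1 read 8.68, 8.99 and 8.67 in tissue and 9.29 to 9.90 in culture, with a median of 9.65, and rose by 0.85 ± 0.14. Tmed10 read 11.09, 11.18 and 11.15 in tissue and 11.82 to 12.17 in culture, with a median of 11.96, and rose by 0.84 ± 0.09. Both were highest on culture arrays 1 to 3, intermediate on arrays 4 to 6 and lowest in tissue. Tmed2 rose by 0.55 ± 0.07 and Tmed4 by 0.46 ± 0.06, and the second probe sets of these 2 genes rose by 0.78 ± 0.11 and 0.54 ± 0.12. Tmed9, Tmed7 and Tmed3 rose by 0.40, 0.34 and 0.27. The dimmer probe sets of Tmed7 differed by 0.11 and −0.02 and were not called. Tmed8 was not called, with 9.58 to 9.67 on culture arrays 1 to 3 and 10.07 to 10.27 on arrays 4 to 6 around 9.70 to 9.75 in tissue.

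**Figure D2:**
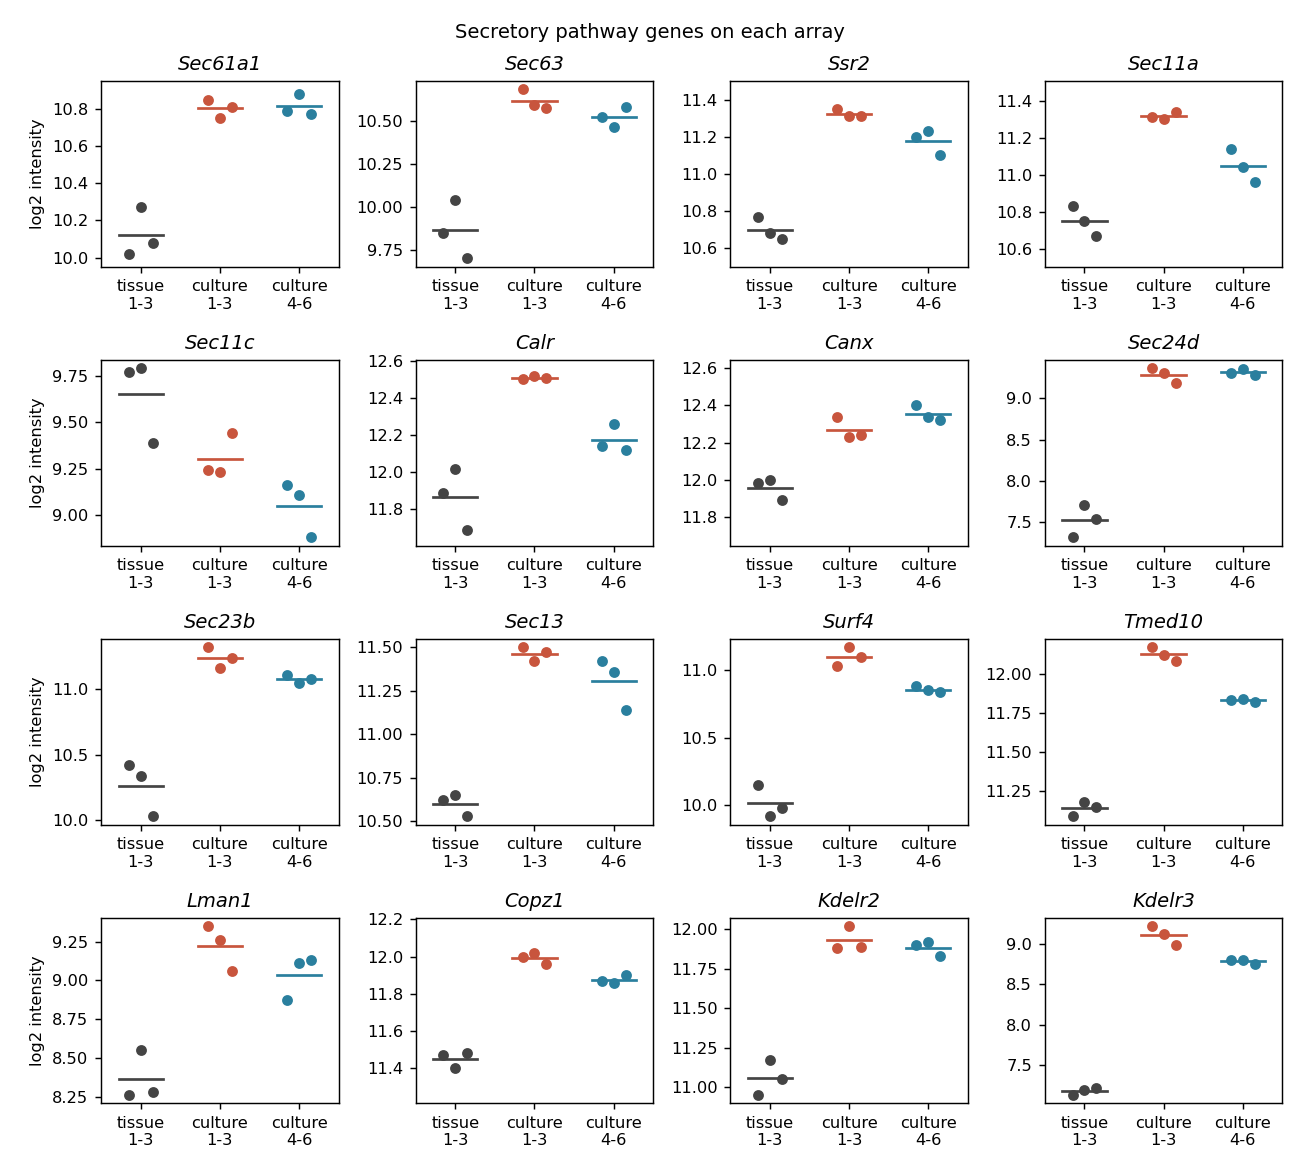
The log2 intensity of selected secretory genes on each of the 3 tissue arrays, culture arrays 1 to 3 and culture arrays 4 to 6; each point is an array and each line the mean of 3. Axes differ between panels and do not start at 0. Tissue points lie below all culture points in every panel but that of Sec11c, where 2 of the 3 lie above all of them; Calr and Tmed10 are higher on culture arrays 1 to 3 than on 4 to 6, and Sec24d is level between them.

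Of 8 genes of the COPI coat, which serves the return path, 4 were higher and 0 lower. Of all genes, 21.9% were higher and 22.7% lower. Copz1, the zeta subunit, read 11.47, 11.40 and 11.48 in tissue and 11.86 to 12.02 in culture, with a median of 11.93, and rose by 0.49 ± 0.06 (adjusted p = 0.000110). Its paralogue Copz2 rose by 0.51 ± 0.12. Copb2 read 10.96, 10.99 and 10.95 in tissue and 11.26 to 11.52 in culture, with a median of 11.31, and rose by 0.38 ± 0.07. Copa rose by 0.30 ± 0.08, a call that was lost when MesE11 replicate 1 or 2 was left out (adjusted p = 0.0617 and 0.0577). Copb1, Cope, Copg1 and Copg2 differed by −0.14 to 0.13 and were not called. Copg1 was higher on its dimmer probe set (0.27 ± 0.06, adjusted p = 0.00559).

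The KDEL receptors, which bind escaped ER chaperones in the Golgi and return them, were all 3 higher, against 21.9% of all genes. Kdelr3 read 7.13, 7.19 and 7.22 in tissue and 8.75 to 9.22 in culture, with a median of 8.89. Tissue and culture were far apart in both culture sets (1.93 and 1.60), and Kdelr3 rose by 1.76 ± 0.11 (3.40-fold, adjusted p = 1.64e-06). Kdelr2 read 10.95, 11.17 and 11.05 in tissue and 11.83 to 12.02 in culture, with a median of 11.90, and rose by 0.85 ± 0.06 (1.80-fold). Kdelr1 read 11.37, 11.28 and 11.40 in tissue and 11.63 to 11.84 in culture, with a median of 11.71, and rose by 0.36 ± 0.06 (1.29-fold).

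The promoters of Kdelr3 and Copb2 are shown because both genes rose, a choice made after their values were seen. Both hold the motif TGACGTGG, a known site for ATF6 and XBP1, factors of the unfolded protein response. In the same 250-base windows it was found on either strand in 3 of 53 members, and in 163 of 27457 genes (174 of 33469 windows, 0.520%). The third member was Srp19, which was not called (−0.09) and is not shown. Of 79 other pathway genes with an entry 7 held it. Arf1, Dnajc10, Gbf1, Hyou1 and Vcp were called higher, and Arf4 and Stx5 were not called. Of all genes, 21.9% were higher. With a random effect for the culture sets, described below, Arf1, Gbf1 and Vcp lost the call (adjusted p = 0.293, 0.158 and 0.187). Dnajc10 and Hyou1 kept it. Arf1 was not called with either culture set alone (adjusted p = 0.143 and 0.0616). Whether the motif has a part in the changes was not tested. In the Kdelr3 and Copb2 sequences the match lies on the other strand, as CCACGTCA, in capitals. The longer element above shares letters with it but was not found in these 2 windows.
Kdelr3, chr7:112959382-112959631, + strand: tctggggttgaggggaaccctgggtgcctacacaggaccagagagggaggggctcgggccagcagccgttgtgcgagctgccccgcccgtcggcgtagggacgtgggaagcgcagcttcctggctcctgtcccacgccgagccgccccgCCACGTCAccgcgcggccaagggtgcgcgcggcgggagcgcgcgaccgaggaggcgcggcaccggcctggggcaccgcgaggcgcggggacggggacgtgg
Copb2, chr8:108040437-108040686, + strand: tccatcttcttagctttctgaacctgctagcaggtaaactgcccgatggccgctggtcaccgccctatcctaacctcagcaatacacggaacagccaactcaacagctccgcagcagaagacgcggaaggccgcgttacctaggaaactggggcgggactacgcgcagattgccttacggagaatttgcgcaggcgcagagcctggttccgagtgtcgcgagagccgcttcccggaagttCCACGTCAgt

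Most calls were shared by the culture sets. With culture arrays 1 to 3 alone 39 members were higher and 4 lower, and with arrays 4 to 6 alone 39 were higher and 1 lower, where 25.7% and 22.9% of all genes were higher and 27.0% and 27.2% lower. In both sets 35 members were higher, against 18.7% of all genes. The 4 lower with arrays 1 to 3 were Sec11c, Copb1, Sec22b and Srp19, and the 1 with arrays 4 to 6 was Sec11c. These fits share the 3 tissue arrays. The median difference was 0.35 with arrays 1 to 3 and 0.30 with arrays 4 to 6, and of the 39 members called higher 30 had the higher mean on arrays 1 to 3. So did 39 of all 62 members and 5926 of all 10411 genes. When each culture set and the tissue arrays were made levels of a random effect, limma called 27 members higher and 0 lower (13.2% and 9.11% of all genes). At an unadjusted p under 0.05 in limma there were 35 and 1, with no share of all genes given at that threshold. All tissue arrays shared a level of this random effect, and limma used a common correlation (0.447) for all probe sets. Its p-values may therefore be too small as well. The 12 members that no longer passed were Copa, Pdia4, Pdia6, Sec24b, Sec24c, Sec31a, Sec61b, Spcs1, Spcs2, Tmed3, Tmed7 and Tmed9, with adjusted p from 0.0558 to 0.275. By role, the random effect left 7 of 12 cargo receptors higher (4 of 8 Tmed genes). It left 3 of 10 COPII, 3 of 8 COPI and 3 of 3 KDEL receptor genes. Higher too were 3 of 6 translocon, 3 of 4 translocon-associated and 3 of 7 folding genes. The rest were 1 of 5 signal peptidase, 1 of 2 Sec22 and 0 of 5 signal recognition particle genes. Without MesE11 replicates 1, 2 and 3 in turn 31, 35 and 33 members were higher, against 17.8%, 19.4% and 17.3% of all genes. Without a culture array 36 to 39 were higher, against 20.0%, 20.9%, 20.6%, 21.4%, 21.4% and 22.3% of all genes for replicates 1 to 6 in turn.

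The probe sets of a gene did not always tell the same. The 62 genes had 80 probe sets, of which 48 were higher and 4 lower, where 19.7% of all 15866 probe sets were higher, 22.5% lower and 42.2% called either way. Of the 14 genes with several, 9 had positive differences on all of them. The 4 lower probe sets were the only one of Sec11c and further ones of Sec31a, Srp72 and Ssr3.

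**Figure D3:**
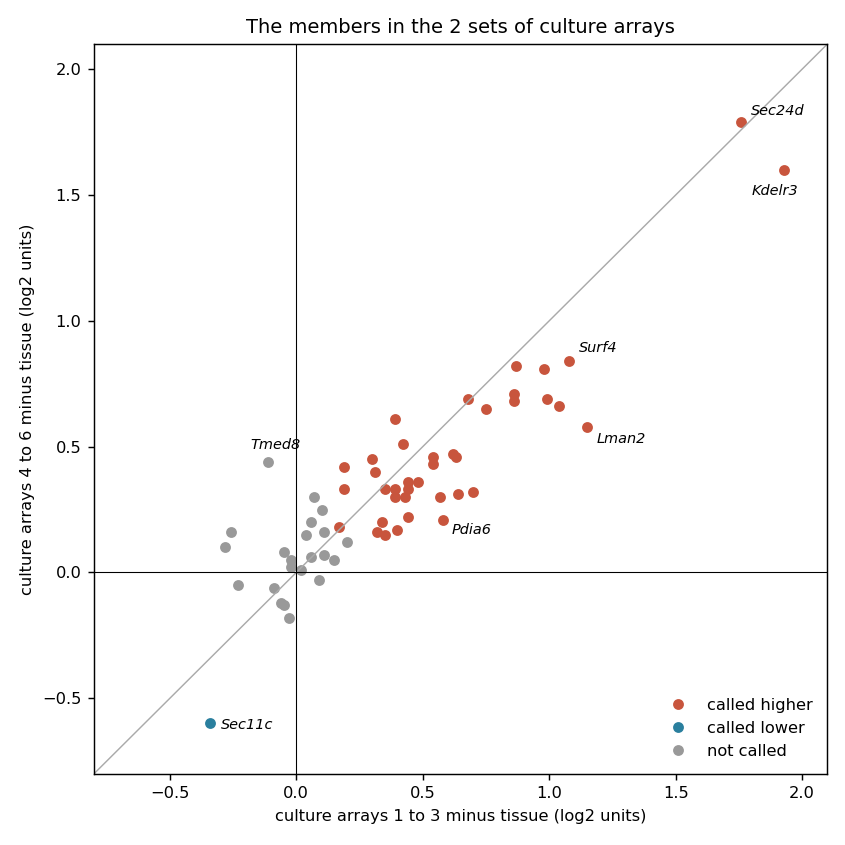
Each point is 1 of the 62 secretory genes, with its difference from tissue on culture arrays 1 to 3 (x axis) and on culture arrays 4 to 6 (y axis), both in log2 units; the grey line marks equal differences and colour the call over all arrays. Most members called higher lie below the line, as Lman2 does at 1.15 and 0.58, and Tmed8 lies apart at −0.11 and 0.44. Of all 10411 genes, 5926 also had the higher mean on culture arrays 1 to 3.

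**Figure D4:**
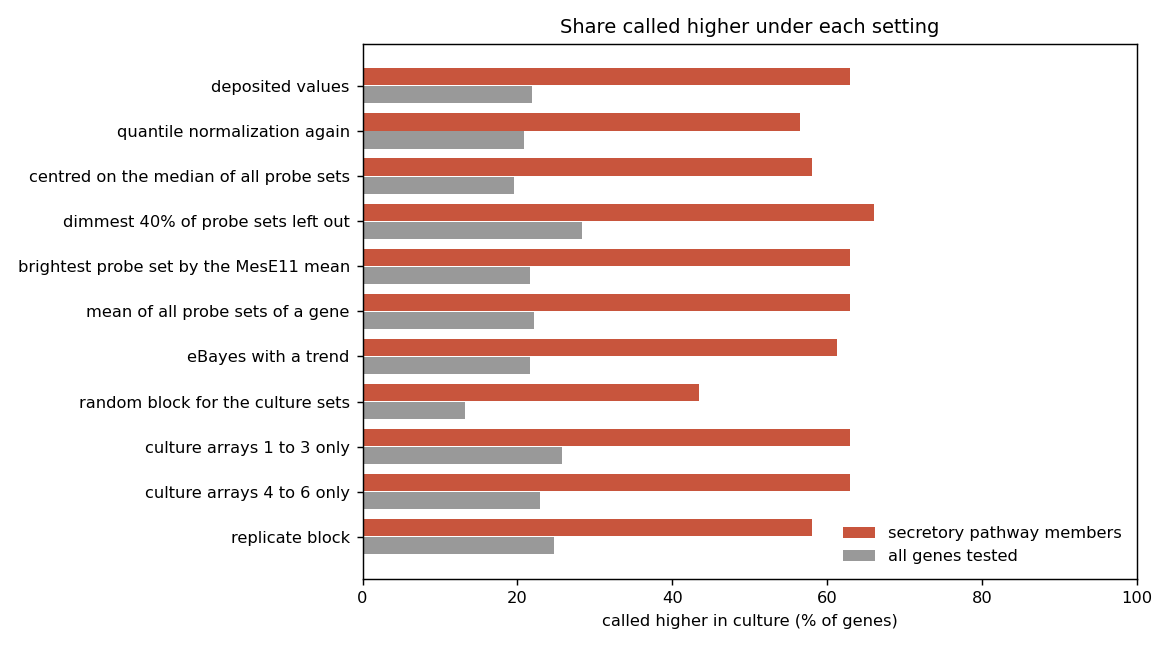
The share of the secretory genes and of all genes called higher in culture, in percent, under the deposited values and 10 other settings. The share of the secretory genes runs from 43.5% with the random block to 66.1% without the dimmest 40% of probe sets, and lies above that of all genes in each setting, which was 20.9% after quantile normalization, 19.6% after centring, 28.4% without the dimmest probe sets, 21.6% by the tissue-brightest probe set and with a trend, 22.1% over gene means and 24.7% with replicate number as a block.

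Genes that work with these were listed by function, also with earlier results known. Their counts stand beside the same shares of all genes, 21.9% higher and 22.7% lower, or 13.2% and 9.11% with the random effect for the culture sets. These shares are at the adjusted threshold, and none is given for the unadjusted counts. Of 12 genes for the oligosaccharyltransferase, which attaches glycans to new proteins, and for the TRAM and SRP receptor proteins, 7 (58.3%) were higher and 0 lower, with a median of 0.47 (7 and 1 at an unadjusted p under 0.05 in limma). With the random effect 7 were higher and 0 lower (7 and 0 unadjusted in limma). Magt1, an oxidoreductase subunit of the transferase, rose by 1.25 ± 0.20, and Tram1, a neighbour of the channel, by 0.92 ± 0.12. Srpra, the receptor that docks the signal recognition particle at the ER, rose by 0.74 ± 0.08. Of 24 ER chaperones and oxidative folding enzymes, 15 (62.5%) were higher and 0 lower, with a median of 0.43 (17 and 0 at an unadjusted p under 0.05 in limma). With the random effect 10 (41.7%) were higher and 0 lower (14 and 0 unadjusted in limma). Serpinh1 (HSP47), the chaperone of collagen, rose from 10.52 to 12.22, by 1.70 ± 0.15, and Txndc5, a disulfide isomerase, by 1.28 ± 0.11. P4hb, the main protein disulfide isomerase, rose by 0.59 ± 0.10 and Hspa5 (BiP) was higher by 0.35 ± 0.11, with overlap of the groups. The call of Hspa5 was lost with the random effect (adjusted p = 0.145), with culture arrays 4 to 6 alone (0.21, adjusted p = 0.0833), after quantile normalization (0.0728), and without MesE11 replicate 1 or 3 or MesPC replicate 3 (0.0523 to 0.140).

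The unfolded protein response and ER-associated degradation were measured with 15 genes, of which 5 (33.3%) were higher and 1 (6.67%) lower. With the random effect 2 (13.3%) were higher and 0 lower (3 and 0 unadjusted in limma), and without MesE11 replicate 3 there were 3 higher. Edem1, which sends misfolded glycoproteins to degradation, rose by 1.14 ± 0.12 and Herpud1, a membrane protein of that route, by 0.49 ± 0.09. Xbp1, whose transcript is spliced in the response, was not called (−0.08 ± 0.05), and Eif2ak3 (PERK), a stress sensor of the ER, lay at the threshold (−0.21 ± 0.08, adjusted p = 0.0499). Its call was lost with the random effect, with arrays 4 to 6 alone, with a trend, without the dimmest probe sets, and without MesE11 replicate 1 or 3 or any of MesPC replicates 1 to 5 (adjusted p from 0.0513 to 0.305). The array does not measure the splicing of Xbp1. A list of 40 genes held tethers, SNAREs, the Arf cycle and other parts of ER-Golgi traffic. Of these, 12 (30.0%) were higher and 6 (15%) lower with a median of 0.03. The count does not stand for tethers, SNAREs and the Arf cycle alone. Among the genes with other roles, Tfg, Mia2, Mia3, Bcap29, Bcap31, Yif1a and Yipf5 were higher. Preb was lower, and Mcfd2 and Arcn1 were not called. With the random effect 8 (20.0%) were higher and 1, Trappc4, was lower. Bet1, a SNARE, rose by 0.89 ± 0.11 and Yif1a, a membrane protein of the transport vesicles, by 0.68 ± 0.10. Trappc4, a subunit of the TRAPP tether, fell by 0.46 and Preb (Sec12), the exchange factor that loads Sar1, fell by 0.32, a call lost with the random effect (adjusted p = 0.0923).

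Markers of cell types moved between the same samples. The counts of markers stand beside 21.9% of all genes higher and 22.7% lower. Of 15 fibroblast and smooth muscle markers, 13 were higher and 1, Thy1, was lower (−0.73). Acta2 was not called (−0.04). Col3a1, a collagen chain that passes through this pathway, rose from 7.51 to 13.07. Its difference of 5.56 was the highest over all genes, so it does not stand for the list, whose median was 2.06. The mean level of the 15 markers was 8.05 to 8.17 in tissue. It was 10.30 to 10.41 on culture arrays 1 to 3, and 10.08 to 10.17 on arrays 4 to 6. Of 10 astrocyte markers 6 were higher and 0 lower, with means of 9.64 to 9.88, 10.63 to 10.70 and 10.42 to 10.49. Of 11 neuron markers 0 were higher and 7 lower, and of 5 erythroid, 5 endothelial and 9 microglial markers 5, 4 and 6 were lower and 0 higher. At an unadjusted p under 0.05 in limma 11 neuron markers were lower, and 0 of these 4 lists' markers were higher. No share of all genes is given at that threshold. The erythroid markers averaged 10.75 to 11.03 on tissue arrays against 7.20 to 7.63 on culture arrays. The endothelial markers averaged 7.84 to 7.90 against 6.41 to 6.65, and the microglial markers 7.68 to 7.70 against 7.19 to 7.35. Marker means below the highest bacterial control in tissue were those of Lum and Serpinf1 among the fibroblast, Aqp4 among the astrocyte, Pecam1 among the endothelial and Ptprc among the microglial markers. In culture they were those of Cldn5 and Pecam1 (endothelial), C1qc, Ptprc and Tyrobp (microglial) and Pitx3 (floor plate). Pecam1 was called lower but lay below that control in both groups (6.36 and 5.74), so no fall could be read from it. The part of these cell types in the differences of the secretory genes was not tested.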

How the data were processed

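Of 9 Affymetrix rat arrays, 3 held MesE11 and 6 held MesPC RNA. The authors deposited log2 intensities made with RMA, per the submitters' processing notes; no version of it is stated in the sources at hand. RMA fits arrays to nearly 1 distribution, so differences are relative to other probe sets of an array; array medians were 8.61 to 8.67. The table held 15923 probe sets; 57 controls were left out of the tests. The platform annotation gave 12783 probe sets with 1 symbol, 312 with several and 2771 with none; a RefSeq table (GRCr8) changed 0 symbols. limma 3.58.1 in R 4.3.3 (lmFit, eBayes) compared MesPC with MesE11 over 15866 probe sets, with Benjamini-Hochberg adjustment. Alternatives were quantile normalization again, centring, a filter on dim probe sets, other rules for a gene's probe set, a trend in eBayes, random and replicate blocks, each culture set alone, and leaving out each array.

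The members, lists and tests were chosen with earlier results of these data known, so no list was tested as a set. Genes given in full were, per role, up to 3 called members in each direction with the largest change and no overlap of groups, together with Calr, Canx, Surf4, Sar1a, Sar1b, Sec61a1, Sec61b, Kdelr1, Kdelr2, Kdelr3 and Lman1; of each list outside the members, up to 2 in each direction. Other members named, Sec11c and Tmed10 among them, and Srpra, P4hb, Hspa5, Xbp1, Eif2ak3 and the marker Col3a1, were chosen after their values were seen. On simulated arrays of 15866 probe sets the fit recovered 65.7% of planted changes of 0.5 log2 units, 95.5% of 1 and 98.5% of 2, with 19 false calls among 192. The simulated noise was independent between arrays and held no culture sets, and few probe sets were changed. These figures therefore may not hold for the real arrays. Plots were drawn with matplotlib 3.10.9.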

Additional observations from a re-analysis of the deposited data

Results flagged for a closer look

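Among the 6 culture arrays, 2 members had an array that stood apart by Dixon's test. Spcs2, a signal peptidase subunit, read 11.47 on MesPC replicate 1, where the others lay between 11.16 and 11.24. Pdia2 read 5.57 on MesPC replicate 4 against 5.72 to 5.77 on the others, all within the range of the bacterial controls. Chance flags about 5% of such groups, and 62 were examined.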

How the results depend on the processing

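Between 35 and 39 members were higher under the alternatives other than the random block and leaving out an array, and 31 to 39 without any 1 array; 30 of the 39 members called higher kept the call without any 1 array. The number of members lower was 1, and became 2 under quantile normalization again (with Copb1) or with the brightest probe set by the MesE11 mean (with Srp72), 0 with the random block (1 at an unadjusted p under 0.05 in limma), 4 with culture arrays 1 to 3 only, and 0 to 1 without any 1 array (0 without MesE11 replicate 1 or 2). The median difference of 0.34 became 0.31 under quantile normalization again, 0.30 with each array centred at its median or with culture arrays 4 to 6 only, 0.29 over the mean of all probe sets of a gene, and 0.32 to 0.35 without any 1 array. Of 42 members followed (all those called, with Sar1a and Sar1b), 27 kept their direction and call under every alternative run, and 0 reversed. Sec31a was not called over the mean of its probe sets (0.07, adjusted p = 0.507), nor was Tmed7 (0.15, adjusted p = 0.0607), whereas Sar1a was (0.38, adjusted p = 0.00196). After quantile normalization Pdia4, Pdia6, Sec24b and Sec61b did not pass (adjusted p between 0.0638 and 0.140), after centring Pdia4, Sec24b and Sec61b did not (0.0546 to 0.0855), and with a trend Sec24b did not (0.0593).

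The replicate numbers 1 to 3 occur in both groups. Same-numbered arrays did not deviate together (r of 0.0836, −0.119 and −0.111 across probe sets), so the numbers were not taken as pairs; with the replicate block, which compares only arrays numbered 1 to 3, 36 members were higher and 4 lower. By these deviations no tissue array correlated best with the culture array of its own number. Tissue arrays 1, 2 and 3 had their highest r with culture arrays 3, 1 and 2 (0.0867, 0.0718 and 0.257). With so few arrays this cannot settle whether samples of the 2 groups shared an embryo group. Pdia2 and Sec16b lay within the bacterial controls' range, so no fall could be read from them.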
